A study of Mus musculus with 159 samples.

Results

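The mammary tumors described here were sorted by the expression of S100a8, S100a9 and Cxcr2, which are 3 genes abundant in neutrophils. Each gene was standardized over all 159 tumors of the series, and the mean of the 3 standardized values was the score of a tumor. The 25 tumors with the highest score were set against the 80 with the lowest, and the 54 tumors in between were kept apart. All tumors came from female offspring of Diversity Outbred mice of generation 7 (DO G7) crossed with PyMT mice, and were taken at about 100 days of age without treatment. PyMT mice carry the polyoma middle T oncogene under the MMTV promoter, which is active in mammary epithelium, on the FVB/NJ background. Every animal thus had FVB/NJ alleles from the PyMT parent and a different mixture of founder alleles from the DO parent, and no tumor-free mammary gland was analysed here. Total RNA of 1 tumor per animal was hybridised to 1 Affymetrix mouse ST array. The groups were selected on measured values, so the 3 score genes are described without a test, and a p-value for any other gene refers to its relation to the score and not to a treatment.

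Neutrophils are short-lived white blood cells that leave the bone marrow after the growth factor G-CSF (Csf3) acts on its receptor Csf3r. They enter tissue along gradients of chemokines that bind Cxcr2, and they carry antimicrobial proteins and proteases in granules. The primary granules, with Mpo, Elane, Prtn3 and Ctsg, are filled at the precursor stage in the marrow, and the later granules, with Ngp, Ltf, Camp, Mmp8 and Mmp9, at later stages. In the cytosol the most abundant proteins are S100a8 and S100a9, which pair as calprotectin. Keratinocytes of stressed or keratinizing epithelium also make S100a8 and S100a9, and this is why genes of keratinized epithelium were followed beside the neutrophil genes. In tumors of a whole tissue, fewer cells of a type and less RNA per cell cannot be told apart.

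The sequences before the start sites of the score genes and of neutrophil genes that were followed through the results are shown first. They are the 250 bases upstream of the start in the RefSeq tables (GRCm38.p6), written from 5′ to 3′ on the strand of the gene. Capitals mark a match, on either strand, to a C/EBP motif (TTGCNNAA), a PU.1 motif (GAGGAAG) or the TATA motif (TATAAA). C/EBP factors and PU.1 direct granulocyte differentiation. S100a8 lies at chr3:90668821-90669070 (plus strand) and S100a9 at chr3:90695722-90695971 (minus strand).
S100a8: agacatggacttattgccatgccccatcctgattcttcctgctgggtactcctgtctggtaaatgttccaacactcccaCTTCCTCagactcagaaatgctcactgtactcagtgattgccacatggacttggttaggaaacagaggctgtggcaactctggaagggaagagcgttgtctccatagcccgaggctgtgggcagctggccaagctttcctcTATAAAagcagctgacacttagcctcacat
S100a9: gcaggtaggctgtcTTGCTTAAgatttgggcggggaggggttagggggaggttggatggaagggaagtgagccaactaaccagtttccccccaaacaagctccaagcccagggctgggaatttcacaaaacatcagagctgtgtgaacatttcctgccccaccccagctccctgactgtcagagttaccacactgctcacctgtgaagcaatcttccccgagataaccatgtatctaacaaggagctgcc
Cxcr2, the chemokine receptor, lies at chr1:74153744-74153993 (plus strand) and Csf3r, the G-CSF receptor, at chr4:126024409-126024658 (plus strand).
Cxcr2: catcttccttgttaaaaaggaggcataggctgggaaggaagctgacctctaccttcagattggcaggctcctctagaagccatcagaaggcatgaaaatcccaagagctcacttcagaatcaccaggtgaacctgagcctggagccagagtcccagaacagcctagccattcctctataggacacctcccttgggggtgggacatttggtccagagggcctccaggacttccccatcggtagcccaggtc
Csf3r: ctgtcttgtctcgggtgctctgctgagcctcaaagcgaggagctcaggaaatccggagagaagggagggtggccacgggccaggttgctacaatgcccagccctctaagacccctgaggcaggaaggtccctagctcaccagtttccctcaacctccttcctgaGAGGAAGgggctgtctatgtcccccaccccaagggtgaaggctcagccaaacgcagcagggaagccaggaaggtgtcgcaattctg
Ngp, a neutrophil granule protein, lies at chr9:110419558-110419807 (plus strand) and Mmp8, the neutrophil collagenase, at chr9:7558179-7558428 (plus strand).
Ngp: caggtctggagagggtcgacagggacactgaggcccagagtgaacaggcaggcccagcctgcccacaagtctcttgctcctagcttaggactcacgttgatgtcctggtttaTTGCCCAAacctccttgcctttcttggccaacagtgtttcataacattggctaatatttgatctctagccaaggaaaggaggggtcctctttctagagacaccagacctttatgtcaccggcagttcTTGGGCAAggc
Mmp8: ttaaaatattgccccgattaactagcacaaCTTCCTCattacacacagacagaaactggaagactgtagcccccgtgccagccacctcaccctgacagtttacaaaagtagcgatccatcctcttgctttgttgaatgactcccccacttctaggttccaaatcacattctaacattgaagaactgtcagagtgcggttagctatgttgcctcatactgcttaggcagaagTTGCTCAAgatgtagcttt

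The motifs of these windows differed from gene to gene. The S100a8 window held TATAAA 30 to 25 bases before the start and a PU.1 match on the opposite strand. The Ngp window held 2 C/EBP matches, and the Cxcr2 window held none of the 3 motifs, which says only that these letters are not in this window. Of the score genes and the 36 neutrophil genes called higher below (39 in all), 33 had a promoter in the table. A C/EBP match was in 8 of these 33 (24.2%), against 8.74% of 14889 measured genes, by the first listed promoter and without every chromosome included. A PU.1 match was in 11 (33.3%, against 10.3%) and TATAAA in 10 (30.3%, against 11.3%). A match is a description of the letters and not of a bound site.

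The score genes themselves differed in level and in spread. Values are in log2 units, and a value of 5.78 was taken as the background level, which is the 95th percentile of the mean values of 1217 olfactory, vomeronasal and taste receptor genes. S100a8 (chromosome 3, 90669071 to 90670034) ran from 6.65 to 10.46 with a median of 8.49 in the high-score tumors, and from 5.56 to 7.28 with a median of 6.27 in the low-score tumors. The ranges touched, with 21 of the 25 high-score tumors above every low-score tumor. S100a9 (chromosome 3, 90692630 to 90695721) ran from 5.55 to 9.25 with a median of 5.92 in the high-score tumors, and from 5.28 to 5.92 with a median of 5.55 in the low-score tumors. S100a9 was above the background level in 19 high-score and 5 low-score tumors, and 13 of the 25 lay above the low-score range. Cxcr2 (chromosome 1, 74153994 to 74161246) ran from 5.22 to 9.66 with a median of 6.13 in the high-score tumors, and from 4.67 to 6.04 with a median of 5.0 in the low-score tumors. Of the 80 low-score tumors, 1 had a Cxcr2 value above background. Only 8 of the 25 high-score tumors exceeded the low-score range in all 3 genes, 8 did so in 2 genes and 9 in 1 gene, which was S100a8 in 6 of them. The mean of the high-score tumors exceeded that of the low-score tumors by 2.05 for S100a8, 0.76 for S100a9 and 1.42 for Cxcr2 on the log2 scale, as the rule had selected them to.

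**Figure D1:**
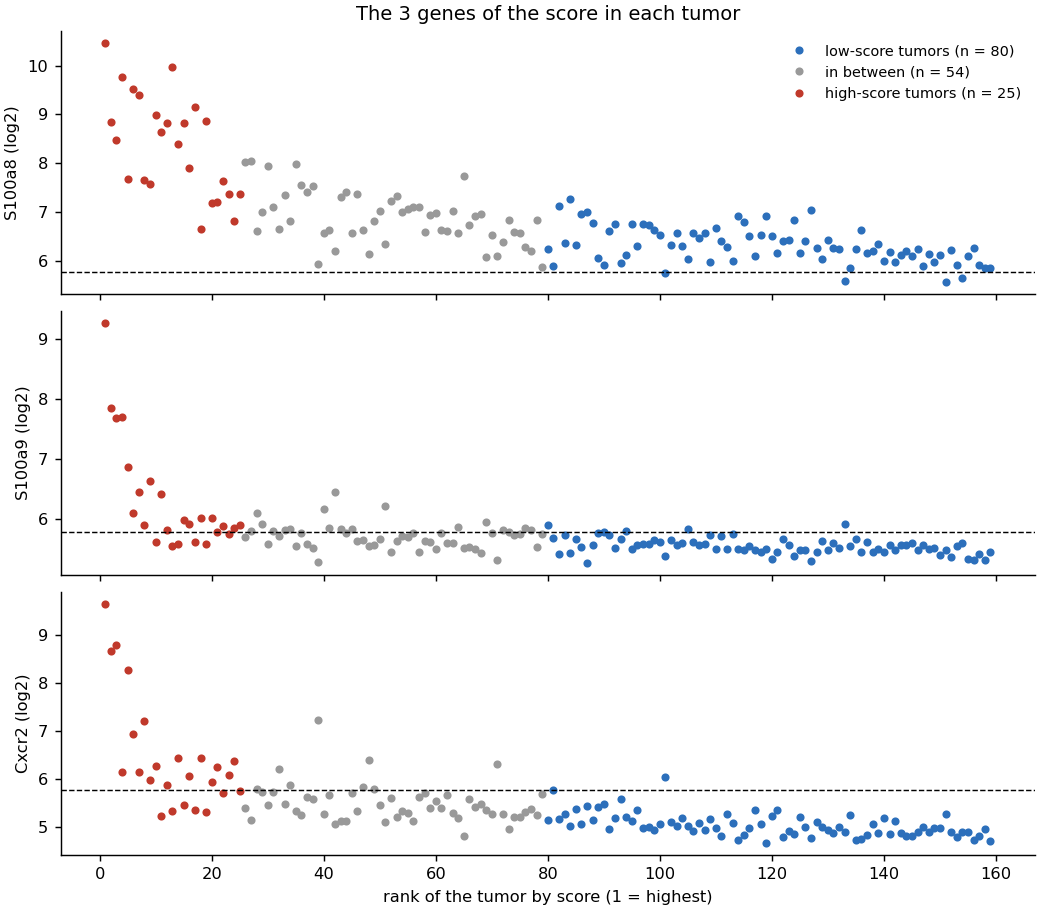
Log2 values of S100a8, S100a9 and Cxcr2 (y axes) in each of the 159 tumors, placed by the rank of their score (x axis, 1 is the highest). Points are single tumors colored by group, the dashed line is the background level of 5.78, and a few tumors at the left carry the high S100a9 and Cxcr2 values (up to 9.25 and 9.66) while S100a8 is spread over all 25 high-score tumors.

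The score had no gap at either edge of the groups. The lowest high-score tumor had a score of 0.46 and the highest in-between tumor 0.41, with S100a8 at 7.37 and 8.03, S100a9 at 5.89 and 5.70, and Cxcr2 at 5.74 and 5.39. The lowest in-between tumor had a score of −0.216 and the highest low-score tumor −0.217. The highest score of all was 5.76, and the median was 0.98 in the high-score and −0.47 in the low-score tumors.

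The arrays were alike in overall level. Array medians lay between 6.99 and 7.16 in the high-score and between 6.98 and 7.16 in the low-score tumors. Of the 159 arrays, 6 correlated less with the others, and these were 1 high-score tumor, 3 in-between tumors and 2 low-score tumors. The high-score tumor among them was the one with the highest score of all (rank 1), so results that rest on it are also given without it. The epithelial markers fitted mammary carcinoma tissue in both groups. Krt8, a keratin of simple epithelium, had a median of 12.42 in the high-score and 12.44 in the low-score tumors, and Epcam, an epithelial adhesion molecule, of 10.63 and 10.76.

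Across the other 18951 genes tested, 1022 were higher (5.39% of those tested) and 874 were lower (4.61%) in the high-score tumors at an adjusted p under 0.05 in limma. Without the tumor of rank 1 the counts were 930 and 727, and without the 5 tumors of highest score 607 and 531. After each array was shifted to the median array the calls split into 1189 higher and 620 lower. Most differences were small. The median difference across the genes tested was −0.01 on the log2 scale, and 232 of the higher and 58 of the lower genes differed by at least 0.5. Among the 42 genes higher by at least 1, 12 belonged to the list of keratinized epithelium, 3 to the list of B and plasma cells and none (0) to the 3 neutrophil lists. The 3 score genes were left out of the test and of the lists, so S100a8 (2.05) and Cxcr2 (1.42) could not be counted there. Only 8 of the 25 tumors exceeded the low-score range in all 3 score genes. The groups are therefore called high-score and low-score tumors here.

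**Figure D2:**
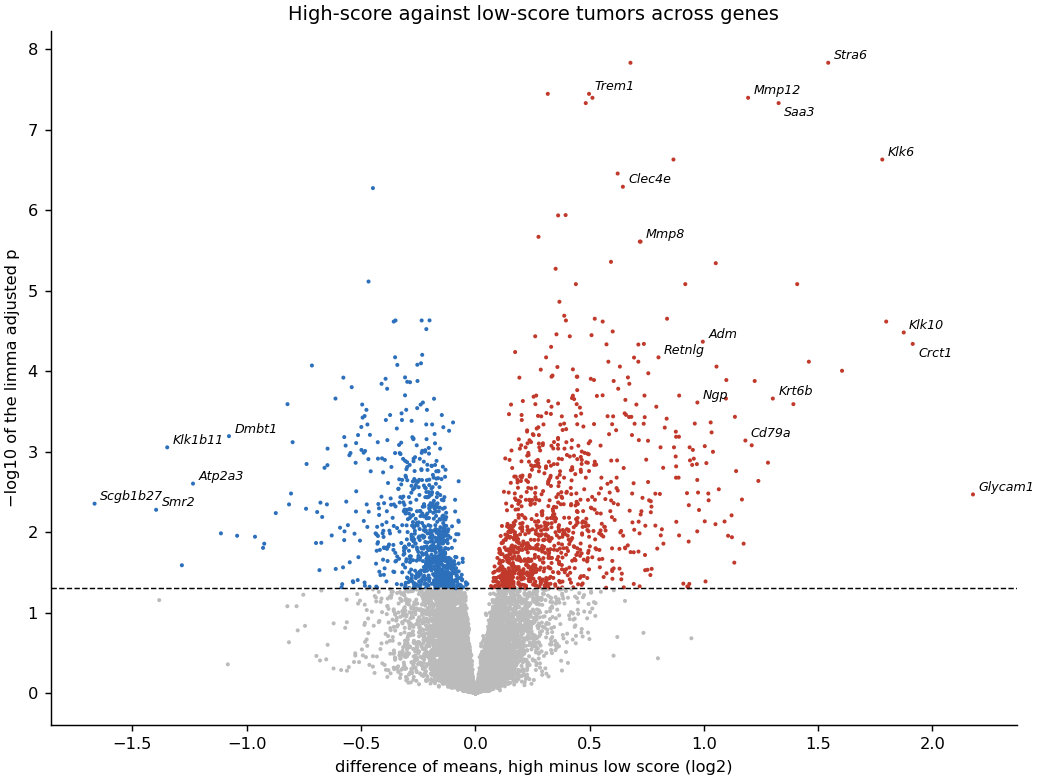
Difference of group means in log2 units (x axis, high-score minus low-score tumors) against −log10 of the limma adjusted p (y axis) for 18951 genes. Red points are the 1022 higher genes, blue points the 874 lower genes, the dashed line is an adjusted p of 0.05, and Glycam1 at 2.18 and Scgb1b27 at −1.67 mark the ends.

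The receptors and surface proteins of neutrophils were higher in the high-score tumors. Of 19 measured members of that list, 13 were called higher and 0 lower, beside 5.39% and 4.61% over all genes, and the median difference was 0.36. The G-CSF receptor Csf3r ran from 6.15 to 9.29 (median 6.92) in the high-score and from 5.91 to 7.09 (median 6.57) in the low-score tumors. The ranges overlapped, with 8 of 25 tumors above all low-score tumors, and the mean difference was 0.52 (SE 0.09, adjusted p = 2.23e-05). Trem1, an amplifier of myeloid activation, separated the groups more fully. It ran from 5.27 to 7.96 (median 5.81) against 4.97 to 5.73 (median 5.36), and 15 of 25 tumors lay above the low-score range. Its mean difference was 0.50, or 1.41-fold (SE 0.06, adjusted p = 3.59e-08), although its mean over all tumors was below the background level. Clec4e, the C-type lectin Mincle, differed by 0.65 (SE 0.09, adjusted p = 5.12e-07), and its neighbour Clec4d by 0.41 (adjusted p = 3.69e-05). Ifitm6 differed by 0.54 (adjusted p = 0.0103) and Cd177, a neutrophil surface antigen, by 0.36 (adjusted p = 0.032). Without the 5 tumors of highest score Csf3r, Clec4e and Trem1 differed by 0.29, 0.42 and 0.39 and passed the test. Ifitm6 (0.12, adjusted p = 0.52) and Cd177 (0.34, adjusted p = 0.092) then did not pass, and Cd177 did not pass without the tumor of rank 1 either (0.32, adjusted p = 0.073). The decoy receptor Il1r2 had a difference of 0.36 that did not pass the test (adjusted p = 0.068). Ly6g, a marker in common use for mouse neutrophils, was not analysed here.

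The granule proteins were higher in part. Of 17 measured members, 11 were called higher and 0 lower, beside 5.39% and 4.61% over all genes, with a median difference of 0.34. Ngp ran from 4.86 to 10.73 (median 5.38) in the high-score and from 4.77 to 5.76 (median 5.10) in the low-score tumors. Only 6 of the 25 high-score tumors lay above the low-score range, and the mean difference was 0.97 (SE 0.19, adjusted p = 2.45e-04). The difference was 0.78 without the tumor of rank 1 and 0.36 without the 5 tumors of highest score, not all of which are among these 6. Mmp8 ran from 4.76 to 9.46 (median 5.16) against 4.62 to 5.20 (median 4.80). The ranges overlapped less than those of Ngp, with 11 of 25 above the low-score range and a mean difference of 0.72 (SE 0.11, adjusted p = 2.46e-06). Without the 5 tumors of highest score it was 0.37 (adjusted p = 7.84e-11). Mmp9, the gelatinase of the later granules that other cells also make, differed by 0.74 (SE 0.13, adjusted p = 4.58e-05), and Pglyrp1, a peptidoglycan-binding protein, by 0.66 (SE 0.19, adjusted p = 0.0156).

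The primary granule proteins differed by unlike amounts. Prtn3, or proteinase 3, ran from 6.84 to 8.46 (median 7.64) in the high-score and from 6.18 to 7.97 (median 6.99) in the low-score tumors. It was shifted over the whole group and not in a few tumors, with a difference of 0.62 (SE 0.09, adjusted p = 3.51e-07) that was 0.65 without the 5 tumors of highest score. Mpo, or myeloperoxidase, ran from 5.15 to 8.16 (median 5.70) against 5.17 to 6.12 (median 5.59). Its difference of 0.39 (SE 0.09, adjusted p = 0.0021) came with 5 tumors above the low-score range, and without the 5 tumors of highest score it was 0.15 and no longer passed the test (adjusted p = 0.064). Elane, or neutrophil elastase, differed by 0.20 (adjusted p = 0.0092) and Ctsg, or cathepsin G, by 0.25 (adjusted p = 0.030). Without the 5 tumors of highest score these were 0.06 (adjusted p = 0.38) and 0.05 (adjusted p = 0.69), and Ctsg did not pass without the tumor of rank 1 alone (0.17, adjusted p = 0.106). Some granule genes had no call. Ltf, or lactoferrin, which mammary epithelium also secretes, had a median of 11.38 in the high-score and 10.99 in the low-score tumors (adjusted p = 0.177). Lcn2, a siderophore-binding protein, stood near the top of the array scale in both groups, with medians of 13.20 and 13.21 (adjusted p = 0.69), and Camp, or cathelicidin, had medians of 6.17 and 6.19 (adjusted p = 0.26).

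Of 20 measured cytosolic and enzyme genes of neutrophils, 12 were called higher and 0 lower, beside 5.39% and 4.61% over all genes. Their median difference was 0.33. Retnlg, a resistin-like protein of neutrophils, ran from 5.28 to 10.64 (median 5.82) in the high-score and from 5.24 to 6.10 (median 5.48) in the low-score tumors. It exceeded the low-score range in 8 of 25 tumors, with a mean difference of 0.80 (SE 0.14, adjusted p = 6.74e-05), or 0.34 (adjusted p = 4.30e-04) without the 5 tumors of highest score. Padi4, which citrullinates histones in neutrophils, differed by 0.71 (SE 0.13, adjusted p = 7.62e-05). Il1rn, the IL-1 receptor antagonist, differed by 0.69 (SE 0.12, adjusted p = 6.78e-05). Acod1, which makes itaconate in activated myeloid cells, differed by 0.36 (adjusted p = 1.16e-06). The largest difference of the list was that of Asprv1 (0.89, SE 0.21, adjusted p = 0.0021), a protease that keratinocytes also make, and 0 of 25 high-score tumors lay above its low-score range of 5.95 to 11.92. Without the tumors rich in keratinized genes described below, Asprv1 had 0.27 and did not pass (adjusted p = 0.24), while Padi4 (0.33, adjusted p = 0.0041), Il1rn (0.30, adjusted p = 0.0146) and Acod1 (0.20, adjusted p = 0.0012) passed with smaller differences. Of 11 NADPH oxidase subunits and Fc receptors, 3 were called higher. These were Rac2 (0.62, adjusted p = 0.0030), Ncf4 (0.34, adjusted p = 7.59e-04) and Cyba (0.34, adjusted p = 0.0014), and 0 of 11 were called without the tumors rich in B cell genes described below, when Rac2 differed by 0.03 (adjusted p = 0.91), Ncf4 by 0.14 (adjusted p = 0.135) and Cyba by 0.21 (adjusted p = 0.087).

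Over the 3 neutrophil lists together, 36 of 56 measured genes were higher and 0 were lower, beside 5.39% and 4.61% over all genes. The median difference was 0.35 beside −0.01 over all genes. The mean of 39 of these 56 genes lay above the background level, and 21 of the 36 calls were among them. The count was 29 without the tumor of rank 1 and 17 without the 5 tumors of highest score. With members chosen by S100a8 and S100a9 alone it was 22, and with members chosen by Cxcr2 alone 27.

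**Figure D3:**
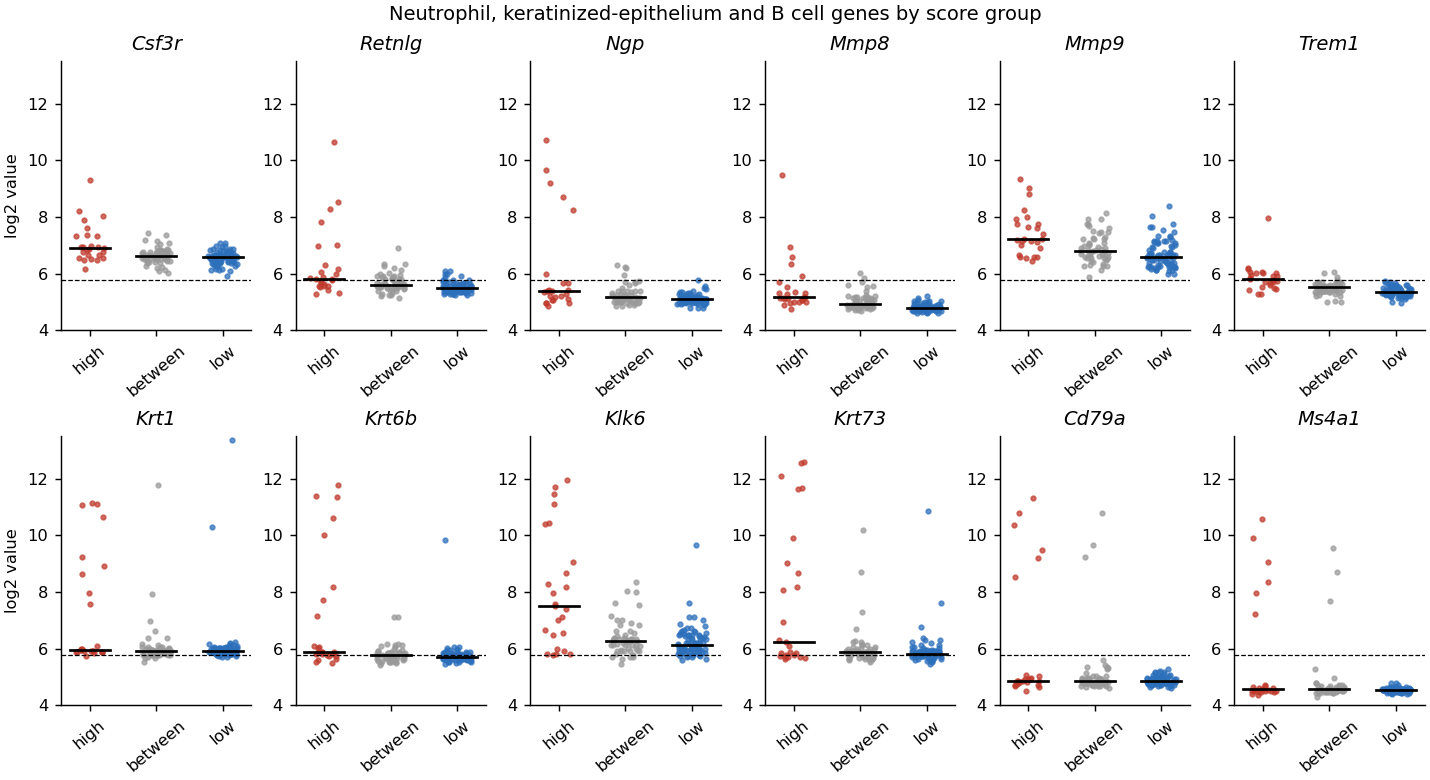
Log2 values (y axis) of neutrophil genes (Csf3r, Retnlg, Ngp, Mmp8, Mmp9, Trem1), genes of keratinized epithelium and the hair sheath (Krt1, Krt6b, Klk6, Krt73) and B cell genes (Cd79a, Ms4a1) in 25 high-score, 54 in-between and 80 low-score tumors. Points are tumors, black lines medians and the dashed line the background level of 5.78; in most panels the medians lie close and a few high-score tumors reach far above, up to 10.73 for Ngp and 11.31 for Cd79a.

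Of 22 measured chemokines and growth factors that draw or mobilize neutrophils, 6 (27.3%) were called higher and 1 lower, beside 5.39% and 4.61% over all genes, with a median difference of 0.10. Csf3, the growth factor itself, ran from 5.59 to 7.00 (median 5.97) in the high-score and from 5.50 to 6.67 (median 5.94) in the low-score tumors. These ranges nearly coincided, and the difference of 0.11 (SE 0.06) did not pass the test (adjusted p = 0.21). Among ligands of Cxcr2, Cxcl2 differed by 0.39 (SE 0.08, adjusted p = 4.47e-04) and Cxcl1 by 0.16 (SE 0.05, adjusted p = 0.039), while Cxcl5 had a difference of 0.07 that did not pass (adjusted p = 0.178). The difference of Cxcl2 was 0.20 (adjusted p = 0.077) without the tumors rich in keratinized genes described below. Cxcl15, or lungkine, was lower by 0.59 on the log2 scale (difference −0.59, adjusted p = 0.0088), at a mean below background. The alarmin Il1a (0.67, SE 0.13, adjusted p = 1.43e-04), Il1b (0.55, SE 0.13, adjusted p = 0.0021), the macrophage chemokine Ccl3 (0.61, SE 0.16, adjusted p = 0.0070) and Ccl20 (0.17, adjusted p = 0.0117) made up the other calls. The list had 9 higher calls without the tumors rich in B cell genes and 2 without those rich in keratinized genes, when Ccl3 (0.42, adjusted p = 0.135), Cxcl1 (0.14, adjusted p = 0.152) and Ccl20 (0.14, adjusted p = 0.080) did not pass. Of 18 genes of the IL-17 pathway, which induces neutrophil-attracting signals in epithelium, 4 were higher and 1 was lower. They were the acute-phase protein Saa3, the RNase Zc3h12a (0.28, adjusted p = 2.14e-06), the receptor Il17ra (0.22, adjusted p = 0.0040) and Nfkbiz (0.20, adjusted p = 4.04e-04), and the receptor Il17re with −0.29 (adjusted p = 0.0170). Il17ra and Il17re did not pass without the 5 tumors of highest score (0.08, adjusted p = 0.35, and −0.27, adjusted p = 0.078).

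Genes of keratinized epithelium made up 7 of the 20 largest positive differences. Of 34 measured members of the keratinized list, 25 were called higher and 0 lower, beside 5.39% and 4.61% over all genes. Their median difference was 0.71. Klk6, a kallikrein protease of skin, ran from 5.77 to 11.96 (median 7.50) in the high-score and from 5.58 to 9.67 (median 6.14) in the low-score tumors. Only 6 of 25 tumors lay above the low-score range, and the difference was 1.78, or 3.44-fold (SE 0.25, adjusted p = 2.35e-07). The kallikreins Klk10 (1.87, SE 0.32, adjusted p = 3.31e-05) and Klk7 (1.46, SE 0.26, adjusted p = 7.62e-05) and the cornified-envelope gene Crct1 (1.91, SE 0.34, adjusted p = 4.58e-05) were higher as well. Krt6b, a keratin of stressed epidermis, had medians of 5.88 and 5.70 in the high-score and low-score tumors, close to each other and to the background level. Its mean difference was nevertheless 1.30 (SE 0.25, adjusted p = 2.19e-04), as 5 high-score tumors reached above the low-score maximum of 9.83. Krt1, a keratin of differentiating epidermis, likewise had medians of 5.96 and 5.91 and a mean difference of 1.17 (SE 0.29, adjusted p = 0.0039). The tumor with the highest Krt1 of all, at 13.37, was a low-score tumor. Trichohyalin (Tchh, 1.39, SE 0.27, adjusted p = 2.57e-04) and the keratins Krt73 (1.80, SE 0.30, adjusted p = 2.42e-05) and Krt25 (1.28, SE 0.29, adjusted p = 0.0014) belong to the inner root sheath of hair. Sprr1a (1.17, SE 0.34, adjusted p = 0.0139) and Sprr1b (1.21, SE 0.26, adjusted p = 8.33e-04) code for small proline-rich proteins of the cornified envelope. Of the other genes among the 20 with the largest differences, Klk14 and Prr9 differed by 1.22 and 1.60, Elovl4, which elongates very long fatty acids, by 1.24, the imprinted gene Peg10 by 1.41, and Stra6, the cellular receptor for retinol-binding protein, by 1.54 (SE 0.19, adjusted p = 1.48e-08). In Stra6, 23 of 25 high-score tumors lay above the low-score median.

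The mean differences of some keratinized genes, such as Krt1 and Krt6b, were carried mostly by few tumors. Klk10 had medians of 9.47 and 7.26 in the high-score and low-score tumors, further apart than those of Krt1 and Krt6b. The mean standardized value over the list ran from −0.38 to 3.70 (median −0.08) in the high-score and from −0.46 to 5.50 (median −0.21) in the low-score tumors. It was over 1.5 in 5 high-score tumors and in 1 low-score tumor. Without these, a choice that by itself lowers the list, 13 of its genes were called. Over all genes 681 were then higher and 446 lower, and 29 of 56 neutrophil genes were higher. Klk6 then differed by 1.0 (adjusted p = 2.52e-05) and Krt6b by 0.36 (adjusted p = 0.0030), while Krt1, with 0.44, did not pass (adjusted p = 0.093). Sprr1a (0.34, adjusted p = 0.57) and Elovl4 (0.44, adjusted p = 0.159) did not pass either, and Klk7, Klk14, Krt73, Krt25, Tchh, Prr9 and Sprr1b passed with differences between 0.34 and 0.77. The basal keratin Krt17 was the only one of 12 basal and myoepithelial genes that was called (0.69, adjusted p = 0.0178). This share of 8.3% is near the 5.39% over all genes, and Krt17 did not pass without the tumor of rank 1 (0.57, adjusted p = 0.054).

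Lymphoid genes were high in another few of the tumors. Of 10 measured B and plasma cell genes, 8 were called higher and 0 lower, beside 5.39% and 4.61% over all genes. Their median difference was 0.52. Cd79a, a chain of the B cell receptor, ran from 4.51 to 11.31 (median 4.87) in the high-score and from 4.62 to 5.27 (median 4.85) in the low-score tumors. The medians nearly coincided below background, and 6 of 25 high-score tumors stood above the low-score range, at 8.54 or more, giving a mean difference of 1.18 (SE 0.25, adjusted p = 7.27e-04). Ms4a1, or CD20, showed the same 6 tumors, with a difference of 1.03 (SE 0.22, adjusted p = 5.76e-04), and Cd79b and the complement receptor Cr2 differed by 1.03 and 0.88. Of 16 genes of T and NK cells, 7 were higher, among them Cd8b1 (0.55, adjusted p = 0.0059), Cd8a (0.47, adjusted p = 0.0074) and Cd4 (0.51, adjusted p = 0.020), and Gzmb, or granzyme B, was lower (−0.31, adjusted p = 0.0156). Of 11 genes of dendritic cells, 5 were higher, led by the homing receptor Ccr7 (0.69, adjusted p = 0.0033) and Siglech (0.47, adjusted p = 0.0055). The mean standardized value over the B and plasma cell list was over 1.5 in 6 high-score, 3 in-between and 0 low-score tumors. Leaving them out takes high-score tumors away for their lymphoid genes, so the 0 of 10 calls then found in this list follow in part from that choice and are no test of it. Glycam1, a milk protein that is also a ligand for L-selectin on the high endothelial venules of lymph nodes, had the largest difference of all genes. It ran from 5.37 to 12.99 (median 10.42) in the high-score and from 5.21 to 12.80 (median 7.22) in the low-score tumors, a nearly complete overlap, with a difference of 2.18, or 4.52-fold (SE 0.53, adjusted p = 0.0034). Without the tumors rich in B cell genes it was 1.51 and did not pass (adjusted p = 0.094). Of the other 11 measured milk genes, Csn1s1 was called, with 0.93 (adjusted p = 0.048), but not without the tumor of rank 1 (0.92, adjusted p = 0.064). Whether lymphoid or lymph node tissue takes part in these differences was not tested.

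**Figure D4:**
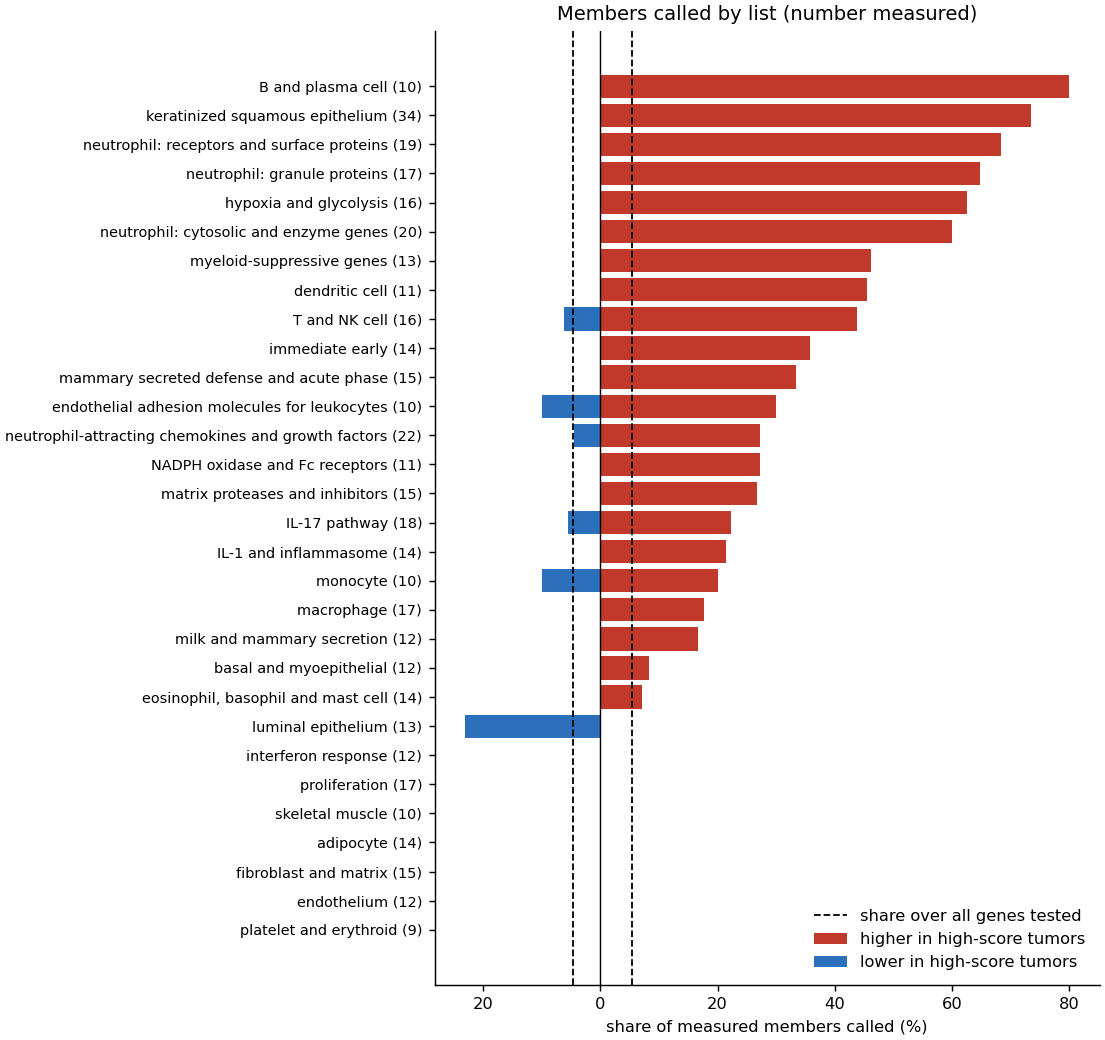
Share of the measured members of each list (number in brackets) that were called higher (red, to the right) or lower (blue, to the left) in the high-score tumors, in percent. Dashed lines give the shares over all genes tested (5.39% higher and 4.61% lower), and the lists of B and plasma cells (8 of 10) and keratinized epithelium (25 of 34) reach further than the neutrophil lists (36 of 56 together).

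High neutrophil genes came with high keratinized genes in the tumor of rank 1 and with high lymphoid genes in some other tumors. The mean standardized value over the 3 neutrophil lists was above 0 in 24 of the 25 high-score tumors, with a median of 0.27 against −0.17 in the low-score tumors. The tumor of rank 1 held the highest S100a8, S100a9 and Cxcr2 of the series (10.46, 9.25 and 9.66). It also had Ngp at 10.73, Retnlg at 10.64, Mmp8 at 9.46 and Csf3r at 9.29, together with Krt6b at 10.61 and Krt73 at 11.63, whereas Cd79a was at 4.87. This tumor was thus high in neutrophil and keratinized genes and low in B cell genes. The other 4 tumors over 1.5 on the keratinized list (ranks 4, 7, 11 and 15) had S100a8 between 8.63 and 9.77 and Krt1 between 10.64 and 11.14. Their Ngp lay between 4.86 and 5.16, their Retnlg between 5.32 and 5.65 and their Csf3r between 6.49 and 6.65, all inside the low-score ranges. High S100a8 in these 4 tumors thus came without a high level of these 3 neutrophil genes. Their S100a9, between 5.99 and 7.69, and their Trem1, between 5.83 and 6.07, lay above the low-score ranges, and Mmp8 did so in 2 of them. Their mean standardized value over the 3 neutrophil lists lay between 0.23 and 0.60, with a median of 0.32. The part of keratinocytes in their S100a8 was not tested.

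The 6 tumors over 1.5 on the B and plasma cell list (ranks 2, 3, 5, 8, 20 and 24) included the 3 tumors with the highest Cxcr2 after rank 1. In ranks 2, 3 and 5 Cxcr2 was 8.66, 8.80 and 8.27, Ngp 9.67, 9.20 and 8.23, and Retnlg 7.83, 8.52 and 8.27. Mpo was 8.16 and 7.18 in ranks 2 and 3, the first of these values being the highest among the high-score tumors, and 6.10 in rank 5. Lymphoid genes, Cxcr2, Ngp and Retnlg were thus high together in these 3 tumors. Mpo was within the low-score range in rank 5, and their Prtn3, between 6.87 and 7.60, did not exceed the low-score maximum of 7.97. Their Krt6b, between 5.51 and 5.89, was near background. In ranks 20 and 24 Ngp was 5.38 and 5.67, within the low-score range, whereas Retnlg in rank 20 (6.16) and Mpo in rank 24 (6.46) lay above it. The remaining 14 tumors were at or under 1.5 on both lists. Their mean standardized values ran from −0.34 to 1.0 over the keratinized list and from −0.47 to −0.08 over the B and plasma cell list, and Krt1 still reached 9.25 in rank 22 and Krt73 9.91 in rank 13. In them S100a8 ran from 6.65 to 9.96 (median 8.15), Cxcr2 from 5.30 to 6.95 (median 6.02), Csf3r from 6.15 to 7.61 (median 6.89) and Ngp from 4.95 to 8.70 (median 5.31). The Ngp of 8.70 was that of rank 9, whose Retnlg was 7.02, and the tumor of rank 13 had the second highest S100a8 of the series (9.96) beside S100a9 at 5.55 and Cxcr2 at 5.33.

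**Figure D5:**
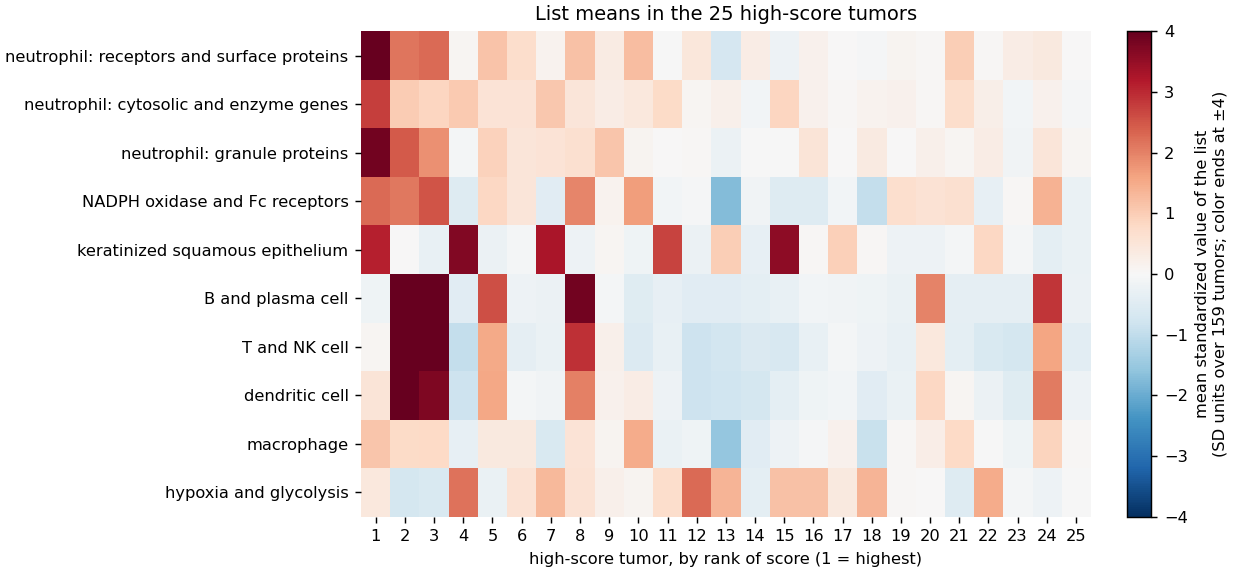
Mean standardized value of 10 gene lists (rows) in the 25 high-score tumors (columns, by rank of score), in SD units over all 159 tumors. Red is above and blue below the mean of all tumors; the neutrophil rows are strong in ranks 1 to 3, the keratinized row in ranks 1, 4, 7, 11 and 15 and the B and plasma cell row in ranks 2, 3, 5, 8, 20 and 24.

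When the tumors over 1.5 on either list were left out, 16 of 56 neutrophil genes were called higher, and 15 of these were among the 36 called with all tumors. They included Trem1 (0.42, adjusted p = 6.55e-09), Mmp8 (0.41, adjusted p = 1.44e-10), Prtn3 (0.74, adjusted p = 1.88e-06), Clec4e (0.41, adjusted p = 1.47e-06), Retnlg (0.38, adjusted p = 7.42e-04), Csf3r (0.32, adjusted p = 0.0026) and Ngp (0.39, adjusted p = 0.024). Mpo had a difference of 0.09 and did not pass (adjusted p = 0.48). Over all genes 536 were higher and 316 lower. Klk6, Crct1 and Klk10 were called higher in these tumors too, with differences of 1.31, 1.02 and 1.79.

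Some acute-phase genes were higher in the high-score tumors. Of 15 mammary secreted defense and acute-phase genes, 5 were higher, beside 5.39% over all genes. Saa3, a serum amyloid A made in tissue, ran from 6.64 to 10.98 (median 8.37) in the high-score and from 5.80 to 9.46 (median 6.92) in the low-score tumors. The ranges overlapped but 24 of 25 high-score tumors lay above the low-score median, with a difference of 1.33 (SE 0.18, adjusted p = 4.68e-08) that was 1.27 without the 5 tumors of highest score. Saa1 and Saa2 differed by 1.0 (adjusted p = 0.0073) and 0.98 (adjusted p = 0.0053). Of 15 matrix proteases and inhibitors, 4 were higher. Mmp12, the macrophage elastase, ran from 6.25 to 9.95 (median 7.76) against 5.88 to 8.30 (median 6.76), with 10 of 25 above the low-score range and a difference of 1.19 (SE 0.16, adjusted p = 4.02e-08). The urokinase receptor Plaur differed by 0.51 (SE 0.07, adjusted p = 4.02e-08), and Mmp7 by 0.52 (adjusted p = 4.54e-04).

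Hypoxia-induced genes were higher as well, with 10 of 16 called, beside 5.39% over all genes, and a median difference of 0.32. This count depended on the score and the comparison group. It was 7 with the score from S100a8 and S100a9 alone, 2 with the score from Cxcr2 alone, 3 with the score as a number over all tumors and 3 against the 25 lowest tumors. Adm, or adrenomedullin, ran from 7.55 to 10.68 (median 8.49) in the high-score and from 6.64 to 9.56 (median 7.61) in the low-score tumors. It exceeded the low-score median in 24 of 25 tumors, and the difference was 1.0 (SE 0.17, adjusted p = 4.30e-05). Ndrg1 differed by 0.63 (SE 0.12, adjusted p = 8.77e-05), the mitophagy gene Bnip3 by 0.52 (adjusted p = 0.0123) and the angiogenic factor Vegfa by 0.51 (adjusted p = 0.0036). The other 6 members of the list were not called in limma, among them Car9 (−0.006, adjusted p = 0.99) and Ldha (0.02, adjusted p = 0.84). The differences of Adm and Ndrg1 were 1.05 and 0.71 without the 5 tumors of highest score. With the tumors rich in keratinized genes left out 4 of 16 were called, and 8 with those rich in either list left out. In the former case Bnip3 (0.42, adjusted p = 0.099) and Vegfa (0.40, adjusted p = 0.052) did not pass. The mean standardized value over the list was between 0.69 and 2.16 in the 4 keratinized tumors named above, whereas it was −0.72 and −0.61 in the tumors of ranks 2 and 3, which had the highest neutrophil values after rank 1. Of 14 immediate early genes 5 were higher, among them Egr3 (0.42, adjusted p = 2.16e-04) and Fosl1 (0.29, adjusted p = 3.64e-04), and of 13 myeloid-suppressive genes 6, among them the prostaglandin synthase Ptges (0.49, adjusted p = 0.023), Cd84 (0.30, adjusted p = 0.021) and Cd274, or PD-L1 (0.24, adjusted p = 0.035). Without the tumors rich in B cell genes Cd84 had 0.07 (adjusted p = 0.68) and Cd274 0.01 (adjusted p = 0.94), and without those rich in keratinized genes Ptges had 0.30 (adjusted p = 0.31).

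Of 17 measured macrophage genes 3 (17.6%) were higher, beside 5.39% over all genes, with a median difference of −0.01. They were the scavenger receptor Msr1 (0.37, SE 0.08, adjusted p = 4.61e-04), the lysosomal protein Cd68 (0.32, adjusted p = 0.0113) and Nos2 (0.20, adjusted p = 0.0021). Of 10 monocyte genes 2 were higher, Treml4 (0.34, adjusted p = 9.12e-04) and Cd300e (0.12, adjusted p = 0.0134), and 1 was lower, Ace (−0.43, adjusted p = 0.0107). Of 14 genes of eosinophils, basophils and mast cells only the transcription factor Gata2 was called (0.58, adjusted p = 0.0025). This share of 7.1% is near the 5.39% over all genes. Cd68 (0.22, adjusted p = 0.153), Treml4 (0.11, adjusted p = 0.22) and Cd300e (0.08, adjusted p = 0.131) did not pass without the tumors rich in B cell genes, nor Gata2 (0.27, adjusted p = 0.23) and Ace (−0.30, adjusted p = 0.142) without those rich in keratinized genes.

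Of 13 luminal genes 3 were lower, beside 4.61% over all genes, and 10 were not called. The count of lower luminal genes was 0 with the score from Cxcr2 alone, and 1 against all other tumors or with the score as a number. Foxa1, a pioneer factor for estrogen receptor binding, ran from 6.60 to 8.38 (median 6.91) in the high-score and from 6.23 to 9.91 (median 7.69) in the low-score tumors. The high-score tumors lay within the low-score range, with a difference of −0.55 (SE 0.17, adjusted p = 0.024). Pgr, the progesterone receptor, had a difference of −0.46 (SE 0.11, adjusted p = 0.0018), and 1 of 25 high-score tumors lay above the low-score median. Gata3, a regulator of luminal identity, had a difference of −0.21 (SE 0.06, adjusted p = 0.0104). The other lower genes are named for the size of their difference and belong to no list. The secretoglobins Scgb1b27 (−1.67, SE 0.42, adjusted p = 0.0044) and Scgb2b27 (−0.96, SE 0.27, adjusted p = 0.0114), the kallikrein Klk1b11 (−1.35, SE 0.29, adjusted p = 8.84e-04), Smr2 (−1.40, SE 0.36, adjusted p = 0.0053) and Prol1 (−1.11, SE 0.31, adjusted p = 0.0103) are known from salivary and other exocrine glands. Dmbt1, a mucosal scavenger receptor, ran from 5.10 to 6.34 (median 5.40) in the high-score and from 5.18 to 10.24 (median 6.38) in the low-score tumors. All 25 high-score tumors lay below the low-score median, and the difference was −1.08 (SE 0.23, adjusted p = 6.41e-04). Amtn (−1.28), Atp2a3, a calcium pump of the endoplasmic reticulum (−1.24), the homeobox gene Meis1 (−1.04) and Gabra4 (−0.93) completed the 10 largest negative differences. Leaving out the tumors rich in keratinized genes, Foxa1 (−0.51, adjusted p = 0.089), Amtn (−1.01, adjusted p = 0.171), Meis1 (−0.98, adjusted p = 0.051) and Gabra4 (−0.79, adjusted p = 0.096) did not pass.

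Several other lists of cell types and programs gave no call, beside 5.39% higher and 4.61% lower over all genes. At these shares such short lists would hold few calls, so 0 calls do not show that a list was unchanged. In the lists of endothelium (0 of 12), fibroblasts and matrix (0 of 15), adipocytes (0 of 14), skeletal muscle (0 of 10), platelets and erythroid cells (0 of 9), proliferation (0 of 17) and interferon response (0 of 12), no gene passed the test. The members with the largest differences were Pecam1 (0.26, adjusted p = 0.130), Lum (−0.41, adjusted p = 0.24), Car3 (−0.56, adjusted p = 0.53), Myh4 (−0.65, adjusted p = 0.25), Car2 (0.37, adjusted p = 0.26), Birc5 (0.16, adjusted p = 0.142) and Usp18 (0.41, adjusted p = 0.42). Of 10 leukocyte adhesion molecules of endothelium, Glycam1, Icam2 (0.14, adjusted p = 0.049) and Madcam1 (0.13, adjusted p = 0.031) were higher and Jam2 (−0.52, adjusted p = 0.0014) was lower. Without the tumors rich in B cell genes none of the former passed (0 of 10). The test was not passed by 6 genes chosen from those that the study names in connection with metastasis. Pvrl1, which the study also names, was not among the genes chosen. Zbtb16 had a difference of −0.14 (SE 0.20, adjusted p = 0.73), Angptl4 of 0.12 (SE 0.18, adjusted p = 0.75), Txnip of −0.08 (SE 0.10, adjusted p = 0.68), Ezr of −0.11 (SE 0.06, adjusted p = 0.30), Cadm1 of 0.04 (SE 0.07, adjusted p = 0.81) and Tpx2 of 0.09 (SE 0.08, adjusted p = 0.56).

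The 54 tumors between the groups had no part in the comparison, and their genes were regressed on the score in the same way. Their scores covered only −0.22 to 0.41. No gene (0 of 18951, or 0.0%) had a slope on the score at an adjusted p under 0.05 in limma, and 1353 (7.14%) had an unadjusted p under 0.05. Of the 1022 genes higher in the high-score tumors, 303 (29.7%) had a positive slope here, beside 32.8% of all genes, and of the 874 lower genes 474 (54.2%) had a negative slope, beside 67.2% of all genes. Both sets thus had a smaller share of slopes in their own direction than all genes had. Of the 56 neutrophil genes, 15 had a positive slope, and the median slope was −0.15 log2 units per unit of score. Of these 56, 1 had a positive slope at an unadjusted p under 0.05, which was Ngp at 0.54 (unadjusted p = 0.038, adjusted p = 0.57 in limma). A negative slope at an unadjusted p under 0.05 was also found in 1 of the 56. The keratinized genes had 13 positive slopes of 34 and a median slope of −0.06, and the B and plasma cell genes 1 of 10 and −0.24.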

How the data were processed

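Mammary tumor RNA was hybridised to 159 arrays, each from another animal. Per the study's methods, BRB ArrayTools was used by the authors for import and for normalization against a median array, with no correction for batch. The deposited values were taken as log2 expression (3.47 to 13.88). For background correction and for the summarization of probes, the method is not stated in what was used here. The table held 20718 probe sets. Only the 18965 that the annotation pairs with 1 symbol were used, and 688 with several symbols and 1065 that it does not list were left out. Symbols were updated through gene identifiers (18940 matched), and each of 18954 genes was represented by its probe set of highest mean. Positions and promoter sequences are from RefSeq tables of GRCm38.p6.

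The score was the mean of S100a8, S100a9 and Cxcr2, each standardized over tumors, and these 3 genes were left out of the tests. The 25 highest and 80 lowest tumors were compared by limma 3.58.1 (lmFit and eBayes, R 4.3.3, two-sided), with Benjamini-Hochberg adjustment over 18951 genes and a call at an adjusted p under 0.05. In the other 54 tumors each gene was regressed on the score in the same way. The members, the 30 gene lists and the tests were chosen with earlier results of these data known. Lists are described by counts and medians beside those over all genes. Named genes were the 20 largest positive and 10 largest negative differences among calls, up to 4 called members of each list in each direction by size (the largest difference where none was called), and a few neutrophil, growth factor and metastasis genes whatever their values. Further list members (Cd177, Il1r2, Clec4d, Camp, Ltf, Lcn2, Prtn3, Ctsg, Acod1 and Ccl20) are markers of the neutrophil lists or were named after their values were seen.

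Alternatives were a shift of each array to the median array (with the same members or members chosen again), quantile normalization, choice of the probe set by variance, genes above background alone, limma with trend and robust settings, blocks of animal numbers as a covariate, leaving out 6 arrays of low correlation (a median correlation with the others over 3 interquartile ranges under the lower quartile), other group sizes, the score as a number, scores from part of the genes, and stricter calls. Leaving out the tumors of highest score or those over 1.5 on the keratinized or the B and plasma cell list was added after the values were seen. The fits were tried on simulated normal data with known differences, in which all tumors had the spread of the low-score tumors. That trial does not cover genes whose spread differs between the groups. The labels name no batch, the number of arrays limits the precision, and p-values rest on the spread between tumors. The fit took 1 variance per gene for both groups, although genes carried by few high-score tumors had unequal spreads. The SD in high-score and low-score tumors was 2.28 and 0.14 for Cd79a and 2.14 and 0.48 for Krt6b. For such genes the SE is smaller than the high-score spread alone would give, and the p-values are likely too low. Tables and figures were made with Python 3.11.15, numpy 2.4.6, pandas 2.3.3 and matplotlib 3.10.9.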

Additional observations from a re-analysis of the deposited data

How the results depend on the processing

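The counts of 1022 higher and 874 lower genes stayed within 1.5 times under quantile normalization, the shift to the median array with the same members, the trend and robust settings, the block of animal numbers, genes above background alone, leaving out the 6 arrays of low correlation or the tumor of highest score, all other tumors as the comparison, the score as a number and the score from Cxcr2 alone. Similar counts did not mean the same genes. With the score from Cxcr2 alone 57.5% of the 1022 higher and 43.1% of the 874 lower calls recurred. With the score as a number these shares were 75.9% and 62.9%, and against all other tumors 80.2% and 61.9%. The shift to the median array gave 65.7% of calls higher, against 53.9% as deposited, and 521 lower genes with members chosen again. Against the 25 lowest tumors there were 273 higher and 501 lower genes, with the score from S100a8 and S100a9 alone 513 and 326, without the 5 tumors of highest score 607 and 531, without the tumors high in keratinized genes 681 and 446, without those high in either list 536 and 316, at an adjusted p under 0.01 505 and 330, and with a difference of at least 0.5 232 and 58. The 36 neutrophil genes became 21 among genes above background, 18 against the 25 lowest, 22 with S100a8 and S100a9 alone, 17 without the 5 highest, 23 without the tumors high in B and plasma cell genes, 16 without either, 21 at an adjusted p under 0.01 and 14 with a difference of at least 0.5. The 25 keratinized genes became 9 against the 25 lowest, 13 without the tumors high in them and 15 without either. The 8 B and plasma cell genes became 4 among genes above background, 0 against the 25 lowest, 0 with S100a8 and S100a9 alone, 5 without the 5 highest, 0 without the tumors high in them, 0 without either and 5 with a difference of at least 0.5. The cause was not tested, except that leaving out tumors or genes also leaves fewer of them in the test.

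Without the tumors high in B and plasma cell genes, and without those high in either list, the difference turned to −0.046 and −0.033 for Cd79a, −0.046 and −0.064 for Ccr7, −0.046 and −0.091 for Siglech, −0.028 and −0.049 for Irf8, −0.0044 and −0.0010 for Ciita, −0.049 and −0.055 for Cd8b1, −0.13 and −0.16 for Cd4, −0.026 and −0.020 for Cd8a, −0.17 and −0.16 for Cd2, −0.0030 and −0.0055 for Ms4a1 and −0.10 and −0.067 for Angptl4, and without the former alone to −0.0059 for Icam2. These tumors were left out for their B cell genes, so lower lymphoid genes among the rest follow in part from that choice. With the score from Cxcr2 alone Lum, Zbtb16 and Txnip had differences of 0.041, 0.040 and 0.029, and as a slope on the score over all tumors Zbtb16, Txnip, Tpx2 and Lcn2 had 0.0041, 0.011, −0.0066 and −0.0014. Of the named genes called, 30 kept their call and direction under every alternative across genes and 84 did not. The slope in the in-between tumors gave 0 calls in each setting. Within 4 blocks of animal numbers that held at least 3 tumors of each group (no test), the median difference over the neutrophil lists was 0.12 to 0.56, over the keratinized list 0.20 to 1.63, and that of Ngp 0.03 to 2.51. No paired analysis was possible because the labels give a single group without replicate numbers.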

Other observations

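In the 54 in-between tumors, slopes on the score ran one way in lists that gave no call between the high-score and low-score tumors. All 10 measured genes of skeletal muscle had a positive slope, with a median of 1.74 log2 units per unit of score, and 11 of 12 interferon-response genes did, with a median of 0.62, beside 32.8% of all genes. In each list 1 gene had an unadjusted p under 0.05, and no gene of the array passed the adjusted test in limma. Genes of one list come from the same tumors and are not independent of each other, so the counts describe these tumors only. Adipocyte genes had 1 positive slope of 14 and a median of −0.76, and macrophage genes 2 of 17 and −0.48.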
